A study of Mus musculus with 4 samples.

Results

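The genes described here are Bhmt, which encodes betaine-homocysteine methyltransferase, and 8 genes of the methionine cycle around it, namely Bhmt2, Mtr, Mtrr, Mat2a, Mat2b, Ahcy, Cbs and Pemt. They were matched by Ensembl ID and symbol, and all 9 were found among the 27357 genes of the deposited tables. RNA was sequenced from Leydig cells, the androgen-producing cells between the seminiferous tubules of the testis. The cells were taken from male mice that were wild type (WT) or carried a knockout of C2orf74 (KO), with 2 libraries per genotype. From the age of 8 weeks all mice were fed high-fat chow for 12 weeks, so the WT libraries also come from fat-fed animals. The labels give neither the strain, nor the kind of knockout allele, nor whether each library came from a separate animal, so the spread between libraries may be technical. Bhmt was selected on the difference between its KO and WT values in these same libraries, and the other genes were listed for their place in the pathway. The levels of the 9 genes in KO and WT are therefore given as a description, with no test.

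Methionine is activated to S-adenosylmethionine, the methyl donor of most cellular methylation reactions. Each methyl transfer leaves S-adenosylhomocysteine, which is split into adenosine and homocysteine. Homocysteine is either methylated back to methionine, with a methyl group from folate or from betaine, or passed to cysteine by transsulfuration. The betaine reaction is best known from liver and kidney, and the folate reaction takes place in nearly every tissue.

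The libraries held between 13847807 and 19764006 reads, as worked out from the smallest steps of the deposited values. The targeted gene, annotated in the mouse as 1700093K21Rik, could not check the labels at this depth. It was at 0 RPKM (reads scaled to exon length and library depth) in WT replicate 1 and in both KO libraries, and at 0.126 RPKM in WT replicate 2, while a count of 0 allows up to 0.108, 0.0952 and 0.0756 RPKM in those 3 libraries, counting error only. Leydig cell markers summed to 1630 and 1444 RPKM in WT and to 1715 and 1806 in KO over 8 of 8 genes. Cyp17a1, the enzyme that makes androgens from progestins, reached only 2.12 RPKM in its highest library. Its values were not whole reads at the exon length used here, so its level is uncertain. Some markers of other testis cells were present too. Summed over each list, myoid genes were at 214 and 242 RPKM in WT and at 186 and 169.8 in KO, fibroblast genes at 232 and 262 against 231 and 185, and Sertoli genes at 49.8 and 57.1 against 41.9 and 44.3. The Sertoli sum was almost all Amhr2, at 47.5 and 54.8 RPKM in WT and at 39.7 and 41.8 in KO. The next highest Sertoli value was 1.14 RPKM, of Cldn11 in KO replicate 2. Germ cell genes were at 9.88 and 10.1 RPKM in WT and at 15.04 and 12.3 in KO, and macrophage genes at 284 and 212 against 145 and 219. Most of the germ cell sum was Zbtb16, at 7.64 and 8.90 RPKM in WT and at 11.55 and 9.03 in KO. The next highest germ cell value was 1.22 RPKM, of Prm1 in KO replicate 1. In such mixed RNA, fewer cells of a type and less RNA per cell cannot be told apart. Sums over 5 endothelial genes were 19.3 and 21.4 RPKM in WT and 12.99 and 9.94 in KO. The KO sums lay below WT for the myoid, fibroblast, Sertoli and endothelial lists, above WT for the germ cell and Leydig lists and overlapped for macrophages. Single genes of a list went different ways. Of the Leydig genes, Hsd3b1, Hsd3b6 and Lhcgr lay above WT in both KO libraries, Insl3 and Cyp11a1 below, and Star, Nr5a1 and Cyp17a1 overlapped. Hsd3b6 averaged 472 RPKM in WT and 746.5 in KO, and Insl3 148 and 77.3. Of the fibroblast genes, Pdgfra lay above WT, Col1a1 and Col1a2 below, and Dcn overlapped. The part of these markers in the differences below was not tested.

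The start regions of Bhmt and of its neighbour and paralog Bhmt2 are shown because the levels of these genes lay far apart in the same cells. Both sequences are from RefSeq on GRCm38.p6, run from 250 bases before to 50 bases after the annotated start, and are read 5′ to 3′ along the minus strand of chromosome 13. The Bhmt window is chr13:93637709-93638008 and the Bhmt2 window is chr13:93674253-93674552. Capitals mark AAGGTCA, the nuclear receptor motif, in Bhmt and GGGCGG, the GC box, in Bhmt2.
Bhmt: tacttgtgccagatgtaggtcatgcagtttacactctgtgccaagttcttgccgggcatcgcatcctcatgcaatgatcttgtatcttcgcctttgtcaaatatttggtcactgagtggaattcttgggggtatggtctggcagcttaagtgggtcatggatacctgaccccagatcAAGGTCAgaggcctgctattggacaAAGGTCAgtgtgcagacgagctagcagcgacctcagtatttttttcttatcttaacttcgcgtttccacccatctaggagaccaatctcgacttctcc
Bhmt2: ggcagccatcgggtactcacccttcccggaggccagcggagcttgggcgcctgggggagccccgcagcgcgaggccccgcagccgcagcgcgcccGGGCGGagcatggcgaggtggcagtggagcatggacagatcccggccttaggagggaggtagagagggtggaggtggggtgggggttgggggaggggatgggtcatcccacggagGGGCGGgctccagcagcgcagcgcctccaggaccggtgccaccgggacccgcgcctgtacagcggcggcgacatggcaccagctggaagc

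In the Bhmt window AAGGTCA began 73 and 48 bases before the RefSeq start. The first copy lies inside TCAAGGTCA, the letters bound by the steroidogenic factor NR5A1, which begins 75 bases before that start. In GENCODE M21 the Bhmt gene reaches further upstream, to position 93637961 inside this window. Both copies thus lie within the GENCODE gene, and their distances hold for the RefSeq start only. On both strands, AAGGTCA was found in 4.72% of 32851 RefSeq windows of this length, at least 2 copies in 0.18%, and TCAAGGTCA in 0.423%. Of the 11 windows of the 9 genes, only that of Bhmt held AAGGTCA. The GC box began 155 and 40 bases before the Bhmt2 start and was present in 35.7% of all windows and in 7 of the 9 genes, with no match in Bhmt or Pemt. The first 233 bases of the Bhmt2 window in genome order are shared with the window of Dmgdh, which is transcribed the other way. The motifs were chosen after the Bhmt sequence had been seen, and a match describes letters, not a bound site.

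Bhmt moves a methyl group from betaine to homocysteine and lies on chromosome 13, positions 93616675 to 93637961 of GRCm38, on the minus strand. It was at 7.69 and 7.61 RPKM in the WT libraries (613 and 693 reads) and at 15.8 and 21.4 RPKM in the KO libraries (1426 and 2431 reads). Both KO libraries lay above both WT libraries, and the WT pair differed by a factor of 1.01 against 1.35 for the KO pair. Mean levels were 7.65 ± 0.0557 RPKM for WT against 18.6 ± 3.95 for KO (here and below mean ± SD, n = 2), a ratio of 2.43 and a log2 change of 1.16 ± 0.15 (SE) on the log2(RPKM + 1) scale used throughout. This placed Bhmt above 53.3% to 53.6% of the tested genes in WT and above 74% and 80.8% in KO. By log2 change it ranked at place 41 of 12391 tested genes. Markers of hepatocytes, in which Bhmt is abundant, were at or near 0: of 7 genes 6 stayed under 1 RPKM in every library, the highest value was 1.30 RPKM, and their sum was 3.36 and 1.75 RPKM in WT and 1.73 and 1.42 in KO. The 3 kidney tubule markers with values summed to at most 0.0336 RPKM.

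Bhmt has copies elsewhere in the genome that can share its reads. Of the 5755 distinct stretches of 50 bases in its GENCODE transcripts, 26.1% also occur in transcripts of other genes, of which 1389 in Gm5096 and 776 in Bhmt-ps1. Gm5096 was at 3.65 and 3.44 RPKM in WT and at 7.58 and 8.77 RPKM in KO. Its values lay higher in both KO libraries, as did those of Bhmt. Bhmt-ps1 was at 0.059 and 0.0517 RPKM in WT and at 0.104 and 0.661 in KO. How reads that match several copies were counted is not known here, so the levels of Gm5096 and Bhmt-ps1 are uncertain and that of Bhmt may include or lack some reads.

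Bhmt2, the paralog that methylates homocysteine from S-methylmethionine, was near the limit of detection. It had 0 reads in WT replicate 1 and in KO replicate 1, 1 read in WT replicate 2 and 2 reads in KO replicate 2. A count of 0 allows up to 0.0878 RPKM in the first and 0.0775 RPKM in the second of the libraries without reads. Bhmt2 was therefore below the filter of 1 RPKM in 2 libraries, which the other 8 genes passed, and no fold is given for it.

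The folate route showed small differences. Mtr, the methionine synthase that takes its methyl group from methylfolate through cobalamin, was at 4.64 and 4.70 RPKM in WT and at 5.05 and 5.09 in KO. Mtrr, the reductase that reactivates methionine synthase, was at 5.96 and 6.20 RPKM in WT and at 4.66 and 4.57 in KO. The KO libraries thus lay above WT for Mtr and below WT for Mtrr, without overlap. The log2 change was 0.10 ± 0.08 (SE) for Mtr and -0.34 ± 0.08 for Mtrr. Within a library, the RPKM ratio of Mtrr to Mtr was 1.28 and 1.32 in WT and 0.923 and 0.897 in KO. The ratio of Bhmt to Mtr, the enzymes of the betaine and the folate route, was 1.66 and 1.62 in WT and 3.13 and 4.20 in KO. Both ratios separated the genotypes, and both are built from values already given.

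**Figure D1:**
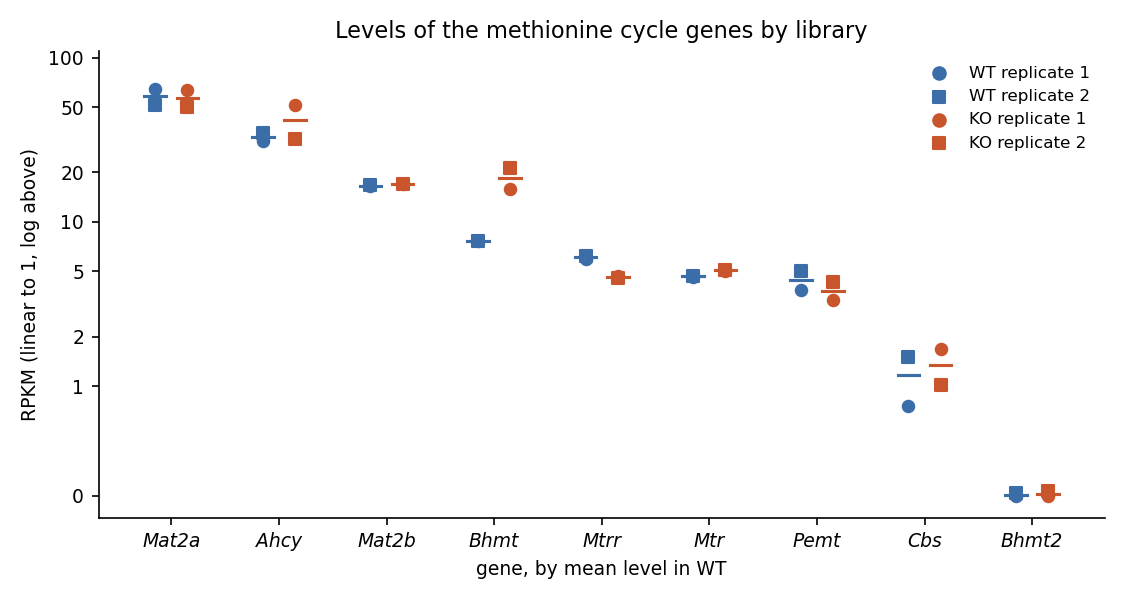
Levels of the 9 genes in RPKM (vertical axis, linear to 1 and logarithmic above), with 1 point for each of the 4 libraries and a line at the mean of each genotype. Bhmt is at 7.61 to 7.69 RPKM in WT and 15.8 to 21.4 in KO, Mat2a is the highest gene on average in both genotypes and Bhmt2 lies close to 0.

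S-adenosylmethionine synthesis had similar levels in both genotypes. Mat2a, the catalytic subunit of the methionine adenosyltransferase used outside the liver, was at 64.4 and 51.7 RPKM in WT and at 63.7 and 50.1 in KO. Its libraries overlapped, and the gap within each genotype, a factor of 1.24 in WT and 1.27 in KO, exceeded the gap between the means. The log2 change was -0.03 ± 0.16 (SE), and it turned positive without WT replicate 1 (0.125), without KO replicate 2 (0.139) and with quantile normalization (0.0101). Mat2b, the regulatory subunit, was at 16.6 and 16.7 RPKM in WT and at 17.0 and 17.1 in KO, the narrowest relative range of the 8 genes past the filter, with a log2 change of 0.04 ± 0.07 (SE). Mat1a, the liver form, reached no more than 0.0547 RPKM in any library. Mat2a overlaps the antisense RNA Particl, at 0.324 to 0.735 RPKM, and since it is not stated whether the counts used strand, their reads may not be told apart.

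Pemt, which spends S-adenosylmethionine to turn phosphatidylethanolamine into phosphatidylcholine, was at 3.88 and 5.05 RPKM in WT and at 3.33 and 4.31 in KO. The genotypes overlapped, with a log2 change of -0.18 ± 0.16 (SE). Without WT replicate 2 this was -0.0254, and without WT replicate 1 it was -0.335. Pcyt1a, which acts in the other route to phosphatidylcholine, was higher per length, so that the RPKM ratio of Pemt to Pcyt1a was 0.0771 to 0.104 over the 4 libraries.

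Ahcy, the hydrolase that splits S-adenosylhomocysteine, was at 31.1 and 34.5 RPKM in WT and at 51.2 and 31.9 in KO. Only KO replicate 1 was high, and KO replicate 2 lay between the WT libraries. The log2 change of 0.30 ± 0.23 (SE) was 0.63 without KO replicate 2 and -0.0365 without KO replicate 1. Of its 50-base stretches 68.7% occur in other transcripts, mostly of Gm4737 on chromosome 16. That gene was at 9.32 and 9.82 RPKM in WT and at 12.9 and 8.36 in KO, again highest in KO replicate 1, so the level of Ahcy is uncertain by an unknown share of reads.

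Cbs, the synthase that commits homocysteine to transsulfuration, was the lowest gene past the filter. It was at 0.821 and 1.51 RPKM in WT and at 1.70 and 1.01 in KO. Each genotype held a high and a low library, and the log2 change was 0.12 ± 0.24 (SE). It was negative without WT replicate 1 (-0.109) and without KO replicate 1 (-0.0869). Cth, the lyase of the next step, was at 3.13 and 3.31 RPKM in WT and at 3.04 and 1.83 in KO, or 1.79 to 3.81 times Cbs within a library.

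Ordered by mean level per length, both genotypes began with Mat2a and Ahcy, and Pemt, Cbs and Bhmt2 came last. In WT they were followed by Mat2b, Bhmt, Mtrr and Mtr. In KO Bhmt stood above Mat2b, and Mtr above Mtrr. Neighbours in this order that overlapped between their libraries were Bhmt and Mat2b in KO and Mtr and Pemt in WT. In KO the ranges of Mat2a and Ahcy also overlapped.

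**Figure D2:**
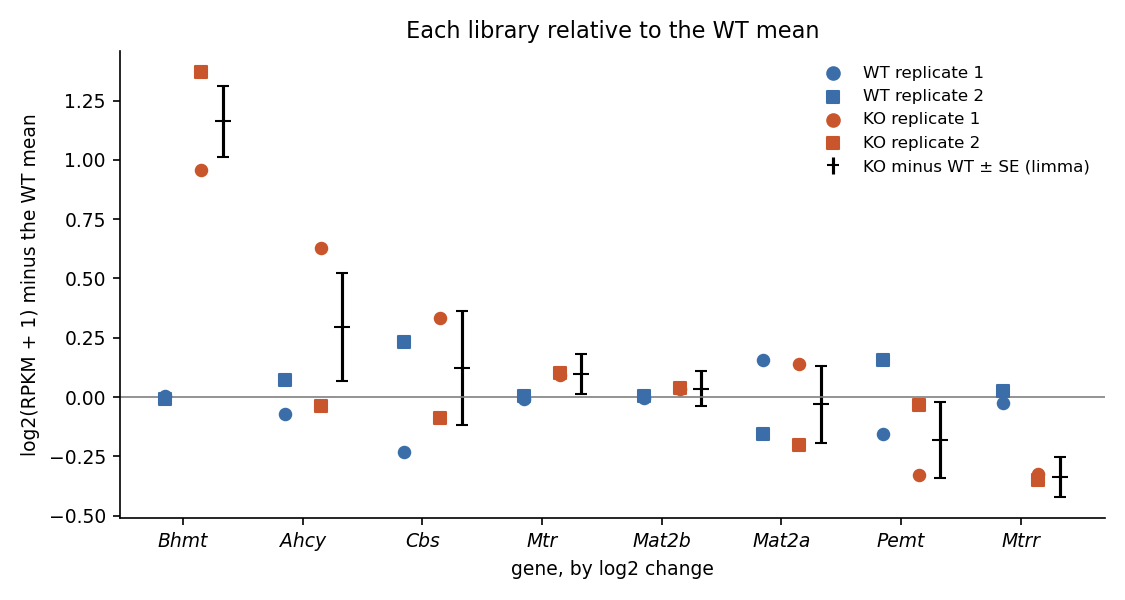
Difference of each library from the WT mean on the log2(RPKM + 1) scale for the 8 genes past the filter, with the fitted KO minus WT change and its SE in black. Both KO libraries of Bhmt lie far above its WT pair, the KO libraries of Ahcy lie apart from each other, and both KO libraries of Mtrr lie below WT.

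Among the 8 genes past the filter, both KO libraries lay above both WT libraries for 3 (Bhmt, Mtr and Mat2b) and below for 1 (Mtrr), while 4 overlapped. The corresponding shares of all 12391 genes tested were 19.7% above and 25.0% below, 44.7% together, so this count of 4 in 8 is near the background, and it uses the contrast on which Bhmt was chosen. Positive changes were seen for 5 of the 8 genes, against 46.2% of all genes. The median log2 change of the 8 genes was 0.07, and 0.04 without Bhmt, against -0.02 over all genes tested. Apart from Bhmt, the log2 changes of the other 7 were smaller than 0.4 in size.

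Over all 12391 genes, limma called 0 higher and 0 lower in KO at a false discovery rate (FDR) of 0.05, 0.0% in each direction, with 536 higher (4.33%) and 919 lower (7.42%) at p under 0.05 before adjustment. Voom on the recovered reads also called 0, with 499 higher and 801 lower at that unadjusted p. Without KO replicate 1 the fit called 38 higher and 36 lower genes, and without KO replicate 2 it called 1 and 3. In these fits KO is 1 library, the spread comes from the WT pair alone, and the lone library is assumed to vary like it. The genes that feed and drain the cycle were followed in 8 lists of 94 genes in all, of which 82 passed the filter. None of the 82 passed an FDR of 0.05. Before adjustment, 7 of them were higher (8.54%) and 9 lower (11.0%) at p under 0.05, against the 4.33% and 7.42% of all genes. Of the 82 changes 42 were positive (51.2%), and their median log2 change was 0.003.

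Changes in the betaine and choline list were mostly positive, 11 of 13 (84.6%, against 46.2% of all genes). Their median log2 change was 0.15, but 0 passed the test. The list also holds genes that use choline or ethanolamine to build phospholipids, so its counts do not measure betaine supply. Both KO libraries lay above both WT libraries for 6 of the 13 (46.2%, against 19.7% of all genes). Chka, the kinase that directs choline into phosphatidylcholine, was at 40.3 and 34.8 RPKM in WT and at 60.0 and 47.0 in KO (log2 change 0.49 ± 0.15 SE, limma adjusted p = 0.341). Chpt1, which completes that route, averaged 3.99 ± 0.237 RPKM in WT and 5.07 ± 0.208 in KO (limma adjusted p = 0.37). The choline transporter-like gene Slc44a2 lay the other way, at 7.03 ± 0.0705 and 5.81 ± 0.130 RPKM. Betaine itself is made from choline by Chdh and then an aldehyde dehydrogenase step attributed to Aldh7a1. Chdh was at 7.17 and 7.42 RPKM in WT and at 10.1 and 7.46 in KO, so KO replicate 2 lay just above the WT pair. Aldh7a1 overlapped between genotypes, at 59.1 ± 2.84 and 61.4 ± 8.71 RPKM. Slc6a12, a betaine transporter, was at most at 0.0414 RPKM.

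The product of the Bhmt reaction, dimethylglycine, is demethylated by Dmgdh and then by Sardh. Dmgdh was at 0.0423 and 0.0556 RPKM in WT and at 0.0933 and 0.207 in KO, on 2, 3, 5 and 14 reads. These are counts near the detection limit, and the gene did not pass the filter. Sardh averaged 4.07 ± 0.0313 RPKM (WT) and 3.75 ± 0.0960 (KO), and Gnmt, which methylates glycine and is abundant in liver, had 1.01 ± 0.0155 and 1.00 ± 0.0692. Of the 5 tested genes of this list 2 changes were positive, and 0 passed the test. The glycine cleavage gene Gcsh had the smallest p, at 102 ± 13.4 and 84.8 ± 0.206 RPKM (limma adjusted p = 0.463).

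Folate cycle genes leaned the other way, with 13 of 17 changes negative and a median log2 change of -0.09, and 0 passed the test. The median was 0.0094 without KO replicate 2. Mthfd1, the cytosolic enzyme that interconverts folate one-carbon units, was at 19.8 and 19.7 RPKM in WT and at 17.5 and 15.7 in KO (log2 change -0.24 ± 0.09 SE, limma adjusted p = 0.404). Its mitochondrial relative Mthfd1l had 5.01 ± 0.110 and 4.06 ± 0.327 RPKM, and the mitochondrial serine hydroxymethyltransferase Shmt2 had 19.0 ± 0.591 and 15.7 ± 1.82. All 3, which were named for the smallest p of the list, lay below WT in both KO libraries. Over the whole list 4 of 17 did so (23.5%), near the 25.0% of all tested genes. The cytosolic Shmt1 overlapped between genotypes, at 2.39 ± 0.243 and 2.24 ± 0.641 RPKM.

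Cobalamin genes, which supply the cofactor of Mtr, lay on both sides, with 5 of 9 changes positive and 0 past the test. Their median log2 change was 0.08, and -0.0426 with voom on recovered reads. Cd320, the receptor for transcobalamin, was at 4.46 and 5.37 RPKM in WT and at 6.32 and 7.36 in KO (log2 change 0.41 ± 0.12 SE, limma adjusted p = 0.344). The lysosomal exporter gene Lmbrd1 had 22.1 ± 0.684 and 27.4 ± 3.56 RPKM. Mmadhc, which directs cobalamin to its enzymes, lay lower, at 35.3 ± 1.16 and 30.6 ± 0.937 RPKM.

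Changes of polyamine and methionine salvage genes were mostly negative, 9 of 12, with a median log2 change of -0.14 and 0 past the test. Both KO libraries lay below both WT libraries for 4 of the 12 (33.3%, against 25.0% of all genes). Srm, the spermidine synthase, was at 40.0 and 38.7 RPKM in WT and at 28.8 and 22.9 in KO. Its log2 change of -0.60 ± 0.12 (SE) had the smallest p of all 82 genes (limma adjusted p = 0.241), and it was past the threshold without KO replicate 1 (log2 change -0.753, limma adjusted p = 0.048), a fit in which KO is 1 library and the spread comes from the WT pair. Mtap, the phosphorylase that begins methionine salvage, had 17.8 ± 0.221 and 14.7 ± 0.352 RPKM, and Odc1, the ornithine decarboxylase, had 38.7 ± 1.49 and 32.0 ± 0.690. Both lay lower in each KO library.

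In the remaining lists 0 genes passed the test as well. Transsulfuration and sulfide genes had 5 of 8 positive changes and a median log2 change of 0.08, which was -0.0879 without KO replicate 1 and -0.144 with voom on recovered reads. There the sulfur dioxygenase Ethe1 averaged 7.28 ± 0.248 RPKM (WT) and 6.09 ± 0.113 (KO), and the sulfite oxidase Suox had 6.19 ± 0.335 and 7.49 ± 0.414. The list around S-adenosylmethionine supply and S-adenosylhomocysteine clearance had 6 of 7 positive changes (85.7%, against 46.2% of all genes) and a median of 0.11. Mat2a and Ahcy, given above, are not in this list, so its count does not measure S-adenosylmethionine synthesis or S-adenosylhomocysteine hydrolysis. The hydrolase-like gene Ahcyl2 had 7.88 ± 0.448 and 9.74 ± 1.14 RPKM. The adenosine-removing enzymes Ada, at 6.23 ± 0.296 and 7.95 ± 2.35, and Adk, at 5.25 ± 0.135 and 5.64 ± 0.135, came next by p. Methyltransferases of small molecules and DNA had 6 of 11 positive changes and a median of 0.001, which lay between -0.0614 and 0.0397 with 1 library left out. The nicotinamide methyltransferase Nnmt had 18.8 ± 0.373 and 15.5 ± 1.98 RPKM. The thiopurine methyltransferase Tpmt lay higher in KO, at 2.12 ± 0.0304 and 3.22 ± 0.826 RPKM.

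**Figure D3:**
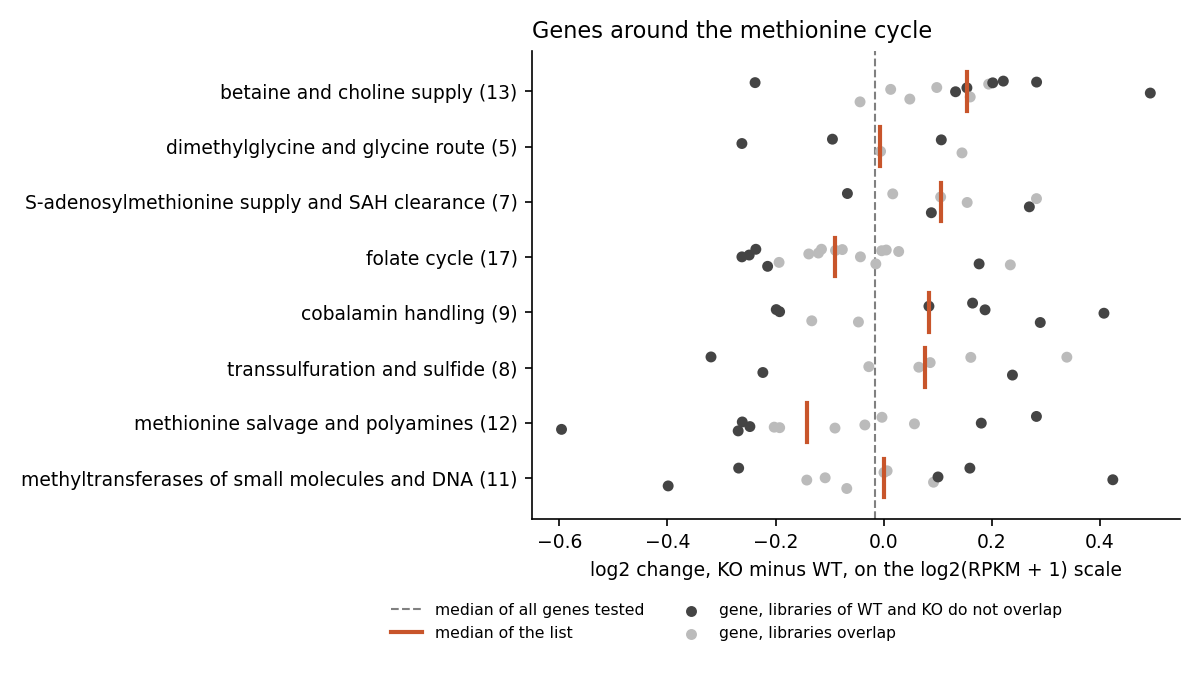
Log2 change of KO minus WT for the 82 tested genes of the 8 lists (horizontal axis), with the number tested in brackets, the median of each list in orange and the median of all 12391 genes as a dashed line. Genes of the betaine and choline list, which includes phospholipid synthesis genes, sit mostly to the right (median 0.15). Polyamine and salvage genes sit mostly to the left (median -0.14), and 0 genes passed the test.

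The genes whose pattern over the 4 libraries was most like that of Bhmt came from outside these lists. Likeness was the root mean square difference between log2(RPKM + 1) profiles, each centred on its mean, over 7045 genes with a mean of at least 5 RPKM. The 5 nearest were Adh1 (0.116), Akr1cl (0.170), Zbed3 (0.197), Gpcpd1 (0.216) and Hao2 (0.222). Adh1, the alcohol and retinol dehydrogenase, was at 59.3 and 68.8 RPKM in WT and at 111 and 173 in KO. Akr1cl, of the aldo-keto reductase family, was at 163 and 183 RPKM in WT and at 328 and 346 in KO. Gpcpd1, a phosphodiesterase of glycerophosphocholine, was at 5.85 and 5.73 RPKM in WT and at 8.81 and 12.0 in KO. All 3 had both KO libraries above WT, as the rule of likeness requires of a gene close to Bhmt. Zbed3 had 11.4 ± 0.0269 and 23.3 ± 0.790 RPKM, and Hao2, a peroxisomal oxidase, had 12.3 ± 0.665 and 21.2 ± 5.06. The nearest of the listed pathway genes were Cd320 at place 70 and Chka at place 129, while Mtrr was at place 6557 and Srm at place 6972.

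Within 500 kb, the 5 tested neighbours of Bhmt on chromosome 13 did not share the size of its difference. Zbed3, named above among the genes most like Bhmt, also lies on chromosome 13, from position 95323612, outside this distance (log2 change 0.96). Of the protein-coding genes that start within 500 kb, Jmy, an actin nucleation factor 138.2 kb away, was at 9.51 and 8.69 RPKM in WT and at 10.3 and 11.0 in KO. Arsb, a lysosomal sulfatase 133.7 kb away on the other side, was at 5.50 and 5.49 RPKM in WT and at 5.79 and 6.58 in KO. Both lay above WT in the KO libraries, with log2 changes of 0.21 ± 0.09 and 0.14 ± 0.09 (SE) against 1.16 for Bhmt. Homer1, a synaptic scaffold gene, had a change of 0.20 ± 0.13 (SE). Tent2 (-0.20 ± 0.12 SE) and Lhfpl2 (-0.29 ± 0.15 SE) lay lower in KO. Bhmt2 and Dmgdh, which start 36.3 and 36.5 kb from Bhmt, and Cmya5 stayed under 0.21 RPKM in every library. None of the 5 tested neighbours passed an FDR of 0.05 in limma, and the smallest adjusted p was 0.454, for Jmy.

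**Figure D4:**
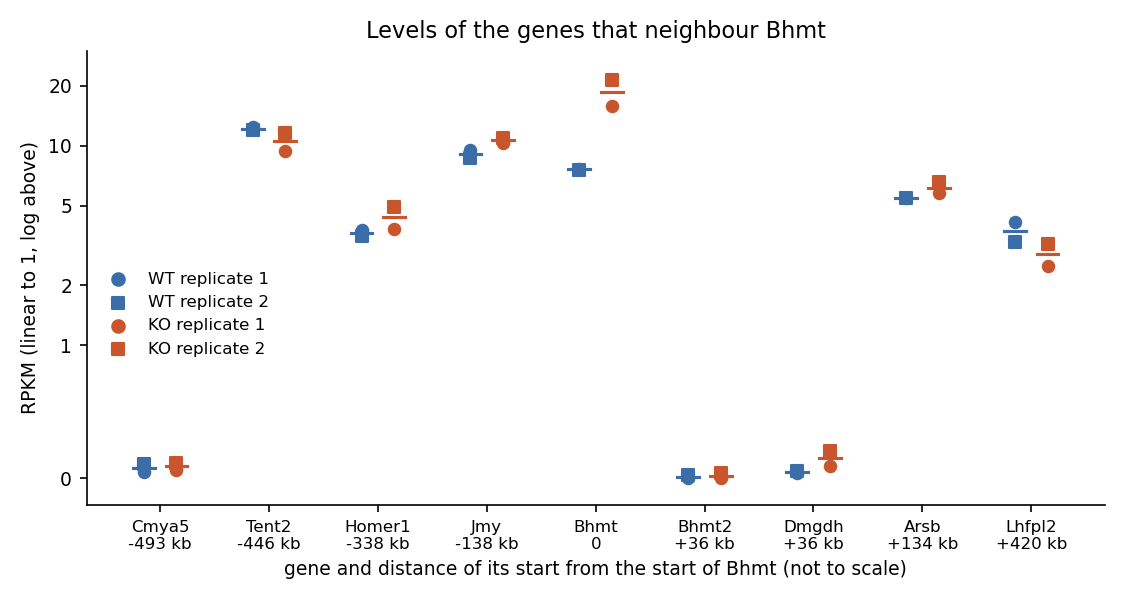
Levels in RPKM (vertical axis, linear to 1 and logarithmic above) of the 9 genes that start within 500 kb of Bhmt, in genome order, with 1 point for each of the 4 libraries and a line at the mean of each genotype. Bhmt stands out by the gap between WT (7.61 to 7.69 RPKM) and KO (15.8 to 21.4), while Bhmt2, Dmgdh and Cmya5 lie near 0.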

How the data were processed

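The deposited files give 1 value per gene and library with no unit in the header. The deposited values were taken here as RPKM, a unit inferred from their steps. Each value was multiplied by the summed exon length in GENCODE M21 (GRCm38). Between 90.4% and 90.7% of values above 0 were then whole multiples of 1 step per library within 0.01 reads, against 2% by chance. Per the submitters' processing notes the build is mm9. The aligner, the counter and the gene models used upstream: not given in the sources used here. Positions are from GENCODE M21. Of 27357 IDs, 27306 had a symbol and a length. For Cbs and Gm5096 the values were not whole multiples, so no reads are given. The same held for other genes named above, among them Cyp17a1, Lhcgr, Amhr2, Pcyt1a, Cd320 and Tst.

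The 12391 genes that reached 1 RPKM in 2 or more libraries were compared on log2(RPKM + 1), which understates changes of low genes, with limma 3.58.1 in R 4.3.3 (genotype only, empirical Bayes with trend, 2-sided, Benjamini-Hochberg FDR of 0.05, checked on simulated data). The fit has 2 residual and 3.08 prior degrees of freedom. Replicates are named by their order in the labels. The remaining work used Python 3.11.15, pandas 2.3.3 and Matplotlib 3.10.9.

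The 9 genes and all lists were chosen with earlier results of these data known. Named were the 9 genes, 10 genes next to them by role, up to 3 genes of smallest p per list, the 5 genes most like Bhmt (no Gm, Rik or LOC symbols) and its neighbours. Of the genes so named, 2 are not reported here. Gene copies, Pcyt1a, Slc6a12 and marker genes were added after their values were seen. Floors of 3 reads cover counting error only. The alternatives were quantile and trimmed-mean normalization, a filter at 5 RPKM or none, a smaller pseudocount (0.1), no trend, each library left out, a replicate block and voom on recovered reads.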

Additional observations from a re-analysis of the deposited data

How the results depend on the processing

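The log2 change of Bhmt ranged from 0.956 to 1.37 over all 12 alternatives, Mtrr from -0.401 to -0.311, Mtr from 0.0911 to 0.118 and Mat2b from 0.0315 to 0.0745, each with 1 sign. Those of Mat2a, Ahcy and Cbs changed sign when single libraries were left out, and that of Mat2a also with quantile normalization (0.0101). With 1 library left out, 0 to 38 genes were called higher and 0 to 36 lower at an FDR of 0.05. In the remaining alternatives 0 were called. With 1 library left out, the list medians ranged from 0.0808 to 0.178 (betaine and choline), -0.0408 to 0.0258 (dimethylglycine and glycine), 0.0444 to 0.183 (S-adenosylmethionine supply), -0.188 to 0.0094 (folate), 0.0485 to 0.125 (cobalamin), -0.0879 to 0.205 (transsulfuration), -0.153 to -0.0877 (polyamines and salvage) and -0.0614 to 0.0397 (methyltransferases). A filter at 5 RPKM, which tests fewer genes, moved the dimethylglycine median to -0.0777, S-adenosylmethionine supply to 0.212, cobalamin to 0.165, polyamines to -0.192 and methyltransferases to -0.0681. A pseudocount of 0.1 gave 0.146 for S-adenosylmethionine supply and 0.123 for cobalamin. Voom gave 0.209 for betaine and choline, 0.15 for S-adenosylmethionine supply, -0.0426 for cobalamin and -0.144 for transsulfuration, and it left out genes without whole reads. The cause of the other shifts was not tested.

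A suffix shared by 1 title per genotype gave a replicate block, with which 0 genes were called higher and 0 lower and the Bhmt log2 change was 1.16. Over the tested genes, the deviations of the libraries with the suffix from their genotype means correlated at -0.0959. Whether these libraries share more than a label was not tested. With 2 libraries per genotype, and no gene of the comparison past the test, a difference within the spread between libraries cannot be told from none. Levels of Bhmt2 and Dmgdh rest on 0 to 14 reads.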

Other observations

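The KO libraries differed from each other for several genes around the cycle, picked here after their values were seen. Tst, the mitochondrial thiosulfate sulfurtransferase, was at 46.8 and 45.8 RPKM in WT, at 73.3 in KO replicate 1 and at 32.9 in KO replicate 2. Ada, the adenosine deaminase, was at 6.02 and 6.44 RPKM in WT, at 9.61 in KO replicate 1 and at 6.29 in KO replicate 2. Ahcy, which releases adenosine, showed the same order, and Bhmt the opposite one, with its higher value in KO replicate 2. Across the 12391 tested genes, on the log2 scale, the KO libraries correlated at 0.981 and the WT libraries at 0.989. Pairs across genotypes correlated at 0.979 to 0.983, the highest being WT replicate 2 with KO replicate 1, and the KO pair lay within that range. Genes are not independent replicates.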
